A study of Mus musculus with 24 samples.

Results

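The transcripts described here encode 10 myokines, the proteins that skeletal muscle secretes and that have been linked to contraction: Il6, Lif, Fndc5, Fgf21, Il15, Metrnl, Gdf15, Ostn, Apln and Bdnf. They were chosen by gene symbol, with earlier results of these data known, and all 10 were found among the 56941 genes of the deposited tables. Of these 10, 9 passed the filter on low counts, which left 13318 genes for testing. Ostn did not pass it.

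The tissues were cultured from C2C12 mouse myoblasts of genotype ChR2::tdTomato, a line that carries a light-gated channel so that light pulses trigger contraction. The cells lay on fibrin hydrogels and were differentiated for about 2 weeks in 10% horse serum with 50 ng/ml IGF-1. In 3 conditions the tissues received light at 1 Hz, 4 Hz or 10 Hz for 30 min per day, the control tissues received none, and each of the 4 conditions had 6 tissues. All tissues carried the channel, so light and contraction cannot be told apart in these comparisons, and the study's authors describe spontaneous twitching in unstimulated tissues as well.

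Contracting fibers release myokines that act on the fiber itself, on neighboring cells and on distant organs. Interleukin-6 and leukemia inhibitory factor share the receptor chain gp130, FGF21 and GDF15 are hormones of metabolic stress, and BDNF and apelin act on nerve and vessel as well as on muscle. Many of these genes respond to calcium, cyclic AMP or stress signaling, and their transcripts report on mRNA level only, not on secreted protein.

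Promoter windows are shown for 3 members whose level rose in at least 1 stimulated condition, because each holds a short motif bound by factors of the calcium, cyclic AMP or stress response. Each window runs from 250 bases before to 50 bases after a RefSeq start site (table of build GRCm38.p6), and each matched GRCm39 at 1 place. Capitals mark the CREB half-site TGACG, the AP-1 site TGANTCA and the ATF4-C/EBP site TGATGNAA, each searched on both strands, and the TATA box TATAAA, searched on the gene's own strand.
Fgf21, chr7:45264865-45265164, minus strand: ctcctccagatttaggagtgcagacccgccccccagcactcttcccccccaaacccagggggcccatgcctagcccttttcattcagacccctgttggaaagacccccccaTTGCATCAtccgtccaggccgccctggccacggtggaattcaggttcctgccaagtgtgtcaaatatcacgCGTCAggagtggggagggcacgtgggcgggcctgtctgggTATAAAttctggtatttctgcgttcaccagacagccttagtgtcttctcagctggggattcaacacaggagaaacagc
Lif, chr11:4207318-4207617, plus strand: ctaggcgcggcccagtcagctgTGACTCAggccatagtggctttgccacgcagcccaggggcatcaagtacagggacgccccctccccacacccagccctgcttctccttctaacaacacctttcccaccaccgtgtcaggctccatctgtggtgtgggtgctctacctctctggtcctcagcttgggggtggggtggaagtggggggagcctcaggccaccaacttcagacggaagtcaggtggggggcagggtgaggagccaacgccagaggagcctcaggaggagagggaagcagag
Il6, chr5:30217862-30218161, plus strand: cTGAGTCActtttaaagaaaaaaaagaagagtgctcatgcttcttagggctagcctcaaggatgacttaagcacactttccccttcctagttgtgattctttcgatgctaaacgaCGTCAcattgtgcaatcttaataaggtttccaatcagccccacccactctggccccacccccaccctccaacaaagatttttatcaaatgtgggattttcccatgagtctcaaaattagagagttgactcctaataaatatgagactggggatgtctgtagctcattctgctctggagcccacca
The Fgf21 window held the ATF4-C/EBP letters at -139, the CREB half-site at -68 and the TATA box at -28, counted in bases from the start site. The Lif window held an AP-1 site at -228. The Il6 window held an AP-1 site at -249 and a CREB half-site at -135. Of all 32851 mouse windows in the table, 20.8% held TGACG, 7.81% held TGANTCA, 3.97% held TGATGNAA and 8.32% held TATAAA. Windows were matched for 8 of the 10 members, 15 windows in all, of which 7 were of Bdnf. Il15 and Ostn had no window. Of these 8, 4 (Fgf21, Lif, Il6 and Bdnf) held at least 1 of the 4 motifs. The share of all windows with at least 1 of the 4 was not computed, so this count cannot be called high or low. Gdf15, whose level also rose, held none of them in either of its windows. Bdnf, whose level fell at 4 and 10 Hz, held an AP-1 site, a CREB half-site and an ATF4-C/EBP site, each in a different window. Such matches describe the letters and are not binding sites shown by these data.

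Depth ran from 4.09 to 15.2 M (mega) counts per library, with a median of 7.48 M. Control libraries averaged 5.67 M, against 8.16, 9.12 and 8.19 M at 1, 4 and 10 Hz (exact permutation test, 2-sided, adjusted p = 0.237, 0.0130 and 0.0818 over 9 tests). RNA that carries no poly(A) tail (14 named small RNAs such as Rn7sk) took 129 ± 23.5 CPM (counts scaled to a common library total, mean ± SD, n = 6) of control libraries, 28.9 ± 21.0 at 1 Hz, 26.1 ± 12.3 at 4 Hz and 122 ± 85.9 at 10 Hz. The 1 Hz and 4 Hz libraries did not overlap the control libraries in this measure (exact permutation test, 2-sided, adjusted p = 0.00974 for each over 9 tests), whereas for 10 Hz the adjusted p was 0.885. Mitochondrial genes took 2.60% of counts in control, 1.88% at 1 Hz, 2.97% at 4 Hz and 3.34% at 10 Hz (exact permutation test, 2-sided, adjusted p = 0.0292, 0.572 and 0.123), and their part in the results was not tested. The labels state that low-input samples were made by ribodepletion in place of poly(A) selection without naming them, so this difference in library makeup and stimulation at 1 or 4 Hz cannot be told apart. The 9 muscle fiber markers summed to 6049 to 8090 CPM in control (median 6598), 9365 to 13223 at 1 Hz (median 10156), 9568 to 15207 at 4 Hz (median 10811) and 6500 to 10000 at 10 Hz (median 7695). Of all genes tested, 9.34%, 10.5% and 1.24% rose at 1, 4 and 10 Hz, and of these 9 markers 6, 7 and 2 rose and none fell. Their part in the results below was not tested, and in bulk tissue a larger share of fibers and more RNA per fiber cannot be told apart. Markers of cells that a C2C12 culture should lack were at or near 0 (at most 11 counts in any library for Pecam1, Cdh5, Ptprc, Adgre1, Snap25, Rbfox3 and Alb), apart from Cd68 and Tubb3, which passed the filter. With Cd68, the 3 immune markers summed to between 67.8 and 113 CPM over all libraries, and with Tubb3 the 3 neuron markers to between 17.5 and 54.0 CPM. The 5 markers of dividing myoblasts had median sums of 28.4, 26.9, 28.4 and 28.3 CPM in control and at 1, 4 and 10 Hz, with single libraries at 4 Hz up to 45.0 CPM. Of these 5, Mki67 (1.28 ± 0.46 on the log2 scale, adjusted p = 0.0280) and Top2a (0.69 ± 0.23, adjusted p = 0.0182) rose at 4 Hz, and none was called at 1 or 10 Hz. For Mki67, 2 of 6 libraries at 4 Hz lay above every control library. Cdk1 was lower without being called, at -0.38 ± 0.13 at 4 Hz and -0.38 ± 0.13 at 1 Hz (edgeR's quasi-likelihood test, adjusted p = 0.0260 and 0.0313). Birc5 and Ccnb1 were at 0.55 ± 0.38 and 0.15 ± 0.23 at 4 Hz. At 1 Hz, Mki67, Top2a and Birc5 were at 0.71, 0.44 and 0.40, and Ccnb1 was at -0.57. Of the 2 reserve cell markers, Pax7 rose at 1 Hz (0.99 ± 0.36, adjusted p = 0.0349) and 4 Hz (1.04 ± 0.36, adjusted p = 0.0230), and Myf5 fell at 4 Hz (-0.61 ± 0.18, adjusted p = 0.00879). The part of these markers in the members' results was not tested.

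Per length, the 10 transcripts spanned levels from 61.2 to 0.72 TPM (transcript abundance corrected for length and scaled to the same sum in each library, mean of 24 libraries). Fgf21 at 61.2, Metrnl at 53.2 and Gdf15 at 48.1 TPM formed the upper level, and their ranges over libraries overlapped. Il15 (12.9), Apln (11.8) and Fndc5 (11.3 TPM) came next, also with overlapping ranges, and every library of the upper 3 (lowest 27.3 TPM) lay above every library of these (highest 20.4 TPM). Bdnf (5.47), Il6 (5.37) and Lif (4.15 TPM) followed, again without separation among themselves. Ostn was last at 0.72 TPM, and 4 of its 24 libraries had 0 counts.

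**Figure D1:**
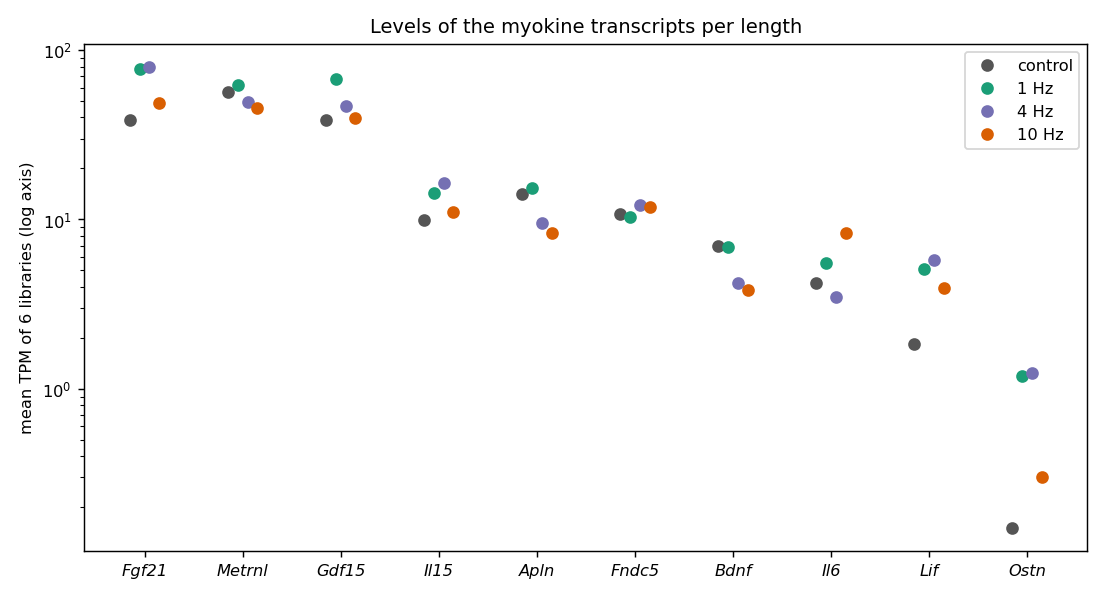
Mean TPM of 6 libraries (log axis) for each of the 10 myokine transcripts, 1 point per condition, ordered by the mean over 24 libraries. Fgf21, Metrnl and Gdf15 lie above the rest in each condition, and Ostn lies lowest in each.

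Against control, 4 of the 9 tested members rose at 1 Hz (Lif, Fgf21, Gdf15 and Il15) and none fell. At 4 Hz, 3 rose (Lif, Fgf21 and Il15) and Bdnf fell. At 10 Hz, Il6 and Lif rose, and Apln and Bdnf fell. A gene was counted as risen or fallen at an adjusted p below 0.05 (edgeR's quasi-likelihood test, Benjamini-Hochberg over 13318 genes) with an absolute log2 fold change above 0.5. Among all genes tested, 9.34% rose and 8.99% fell at 1 Hz, 10.5% rose and 9.61% fell at 4 Hz, and 1.24% rose and 0.623% fell at 10 Hz. The members' median log2 fold change was 0.48 at 1 Hz, 0.38 at 4 Hz and 0.23 at 10 Hz, beside -0.01 over all genes in each comparison. The 3 comparisons share the 6 control libraries. With the small RNA share as a covariate, 0 members passed at 1 Hz and 0 at 4 Hz, where 1 and 249 genes of all passed. In that fit 3 members passed at 10 Hz (Il6, Apln and Bdnf), beside 203 genes of all.

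**Figure D2:**
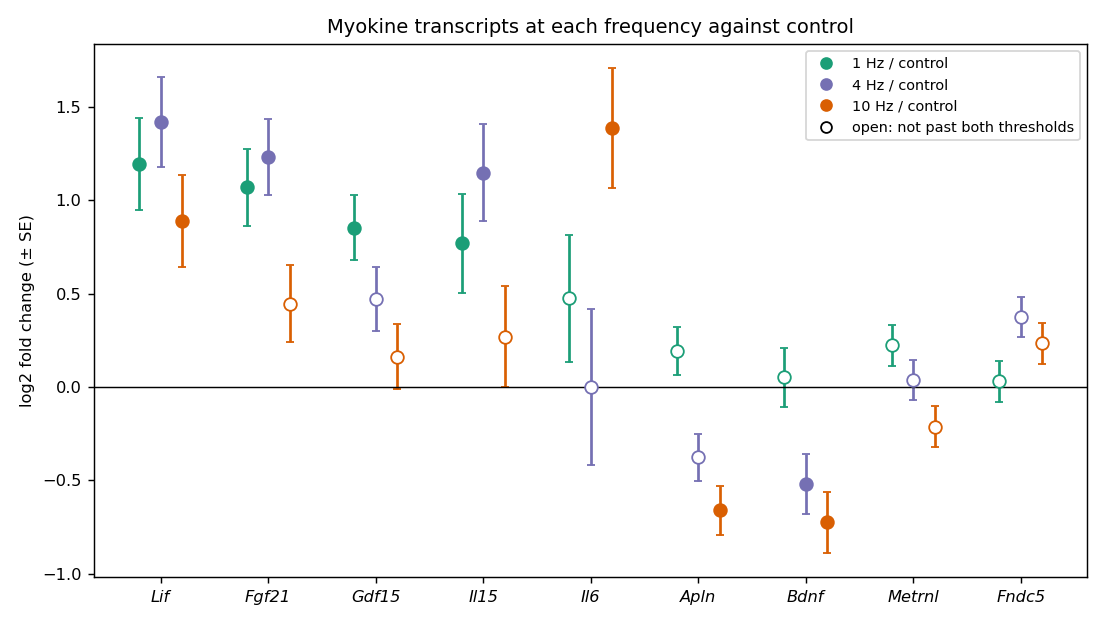
Log2 fold change against control (± SE, n = 6 per condition) of the 9 tested myokine transcripts at 1, 4 and 10 Hz, with filled points past both thresholds. Lif, Fgf21 and Il15 are filled above 0 at 1 and 4 Hz, Il6 and Lif at 10 Hz, and Bdnf below 0 at 4 and 10 Hz.

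Lif, the gp130 cytokine that promotes myoblast growth, was the only member to rise at all 3 frequencies. It lay between 2.09 and 7.88 CPM in control (median 4.26), 8.58 and 14.1 at 1 Hz (median 11.6), 9.87 and 19.9 at 4 Hz (median 12.7) and 6.29 and 11.9 at 10 Hz (median 9.24). In CPM every library at 1 and 4 Hz lay above every control library, and at 10 Hz 3 of 6 did. In TPM the lowest 1 Hz library (3.08) lay below the highest control library (3.17). The log2 fold change was 1.19 ± 0.24 (SE) at 1 Hz (adjusted p = 0.000526), 1.42 ± 0.24 at 4 Hz (adjusted p = 5.46e-05) and 0.89 ± 0.25 at 10 Hz (adjusted p = 0.0329). The 10 Hz call for Lif was lost when control replicate 1, 3 or 5 or 10 Hz replicate 3, 4 or 6 was left out (adjusted p up to 0.0781).

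Il6, the other gp130 cytokine and a long-studied myokine of contracting muscle, followed another order. Its counts were low, from 8 to 119 reads per library. In CPM it spanned 1.50 to 3.35 in control (median 2.03), 1.63 to 5.43 at 1 Hz (median 2.84), 1.38 to 2.65 at 4 Hz (median 2.25) and 2.73 to 12.4 at 10 Hz (median 4.58). Of the 10 Hz libraries, 5 of 6 lay above every control library and 6 of 6 above every 4 Hz library. Il6 rose at 10 Hz by 1.39 ± 0.32 on the log2 scale (adjusted p = 0.0123), whereas the values were 0.48 ± 0.34 at 1 Hz (adjusted p = 0.287) and -0.00033 ± 0.42 at 4 Hz (adjusted p = 0.9996). Without 10 Hz replicate 3, the library at 12.4 CPM, the 10 Hz difference was 0.98 (adjusted p = 0.0366). On the scale log2(TPM + 1), limma gave 0.77 (adjusted p = 0.128), so the call held for counts and not for TPM. The ratio of count to TPM, a measure of the transcript length that salmon assigned, varied 2.13 times between libraries for Il6, 2.02 times for Lif and 4.19 times for Il15, against a median of 1.13 times for abundant genes.

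Fgf21, a hormone that muscle releases under mitochondrial and metabolic stress, had the highest mean TPM of the 10. It lay between 16.8 and 29.4 CPM in control (median 20.1), 31.2 and 56.2 at 1 Hz (median 44.7), 36.6 and 63.4 at 4 Hz (median 52.5) and 16.3 and 47.3 at 10 Hz (median 29.0). Each library at 1 Hz and at 4 Hz exceeded the highest control, while the 10 Hz libraries overlapped it. Its transcript rose by 1.07 ± 0.21 at 1 Hz (adjusted p = 0.000307) and 1.23 ± 0.20 at 4 Hz (adjusted p = 4.47e-05) on the log2 scale. At 10 Hz the difference was 0.45 ± 0.21 (adjusted p = 0.216, 95% interval 0.04 to 0.85).

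Gdf15, the stress hormone that acts through a brainstem receptor, showed its highest level at 1 Hz. The ranges were 24.9 to 41.2 CPM in control (median 34.6), 42.2 to 86.4 at 1 Hz (median 59.1), 34.0 to 64.5 at 4 Hz (median 47.0) and 29.1 to 47.4 at 10 Hz (median 38.1). Only at 1 Hz did all 6 libraries lie above every control library, and at 4 Hz 4 of 6 did. Gdf15 rose at 1 Hz by 0.85 ± 0.17 on the log2 scale (adjusted p = 0.000473). At 4 Hz the difference of 0.47 ± 0.17 passed the p threshold (adjusted p = 0.0305) but not the fold threshold, and at 10 Hz it was 0.16 ± 0.17 (adjusted p = 0.645). Without control replicate 2 or 4, or 4 Hz replicate 3 or 5, the 4 Hz difference passed both thresholds (up to 0.55).

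Il15, a cytokine that acts on lymphocytes and that muscle makes, had 13 to 167 counts per library. Its CPM ran from 3.02 to 8.89 in control (median 4.52), 7.20 to 11.6 at 1 Hz (median 8.23), 9.67 to 14.7 at 4 Hz (median 11.6) and 3.39 to 10.8 at 10 Hz (median 6.21). In CPM the 4 Hz libraries all exceeded control, and 2 of 6 did at 1 Hz. In TPM the 4 Hz libraries (10.5 to 20.4) overlapped control (4.45 to 16.0). The 4 Hz call held on log2(TPM + 1) with limma and was lost there with no filter on low values. Il15 rose by 0.77 ± 0.27 at 1 Hz (adjusted p = 0.0250) and 1.15 ± 0.26 at 4 Hz (adjusted p = 0.00103) on the log2 scale, and was 0.27 ± 0.27 at 10 Hz (adjusted p = 0.619). The 1 Hz call was lost without control replicate 3, 5 or 6 or 1 Hz replicate 3 (adjusted p up to 0.0655), and on log2(TPM + 1) with limma (0.60, adjusted p = 0.115).

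**Figure D3:**
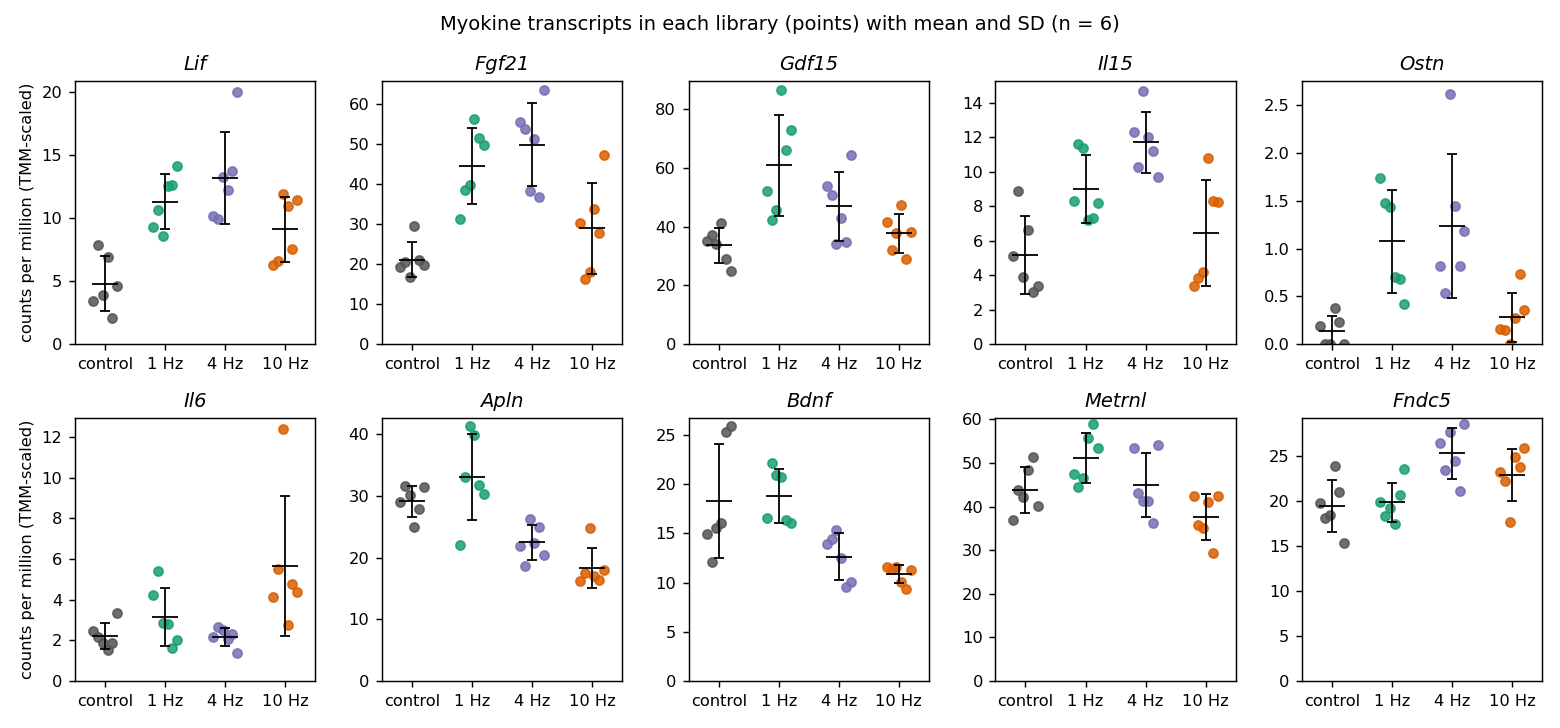
CPM, with library sizes scaled by TMM, of each of the 10 myokine transcripts in all 24 libraries (points), with the mean and SD of the 6 libraries per condition (bars). Lif and Fgf21 at 1 and 4 Hz stand above every control library, Il6 is highest at 10 Hz with 1 library at 12.4 CPM, and Apln and Bdnf are lowest at 10 Hz.

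Apln encodes apelin, a peptide that acts on vessels and muscle through a single receptor, and its level was lowest at 10 Hz. It spanned 24.9 to 31.5 CPM in control (median 29.5), 22.0 to 41.3 at 1 Hz (median 32.4), 18.7 to 26.3 at 4 Hz (median 22.2) and 16.2 to 24.8 at 10 Hz (median 17.3). All 6 libraries at 10 Hz lay below every control library, and 5 of 6 at 4 Hz. Apln fell by 0.66 ± 0.13 at 10 Hz (adjusted p = 0.00346). At 4 Hz the log2 fold change was -0.38 ± 0.13 (adjusted p = 0.0211), short of the fold threshold in counts and past it with limma on log2(TPM + 1) (-0.52, adjusted p = 0.00222), a scale on which the median of all genes lay at -0.16, and at 1 Hz it was 0.19 ± 0.13 (adjusted p = 0.244).

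Bdnf encodes brain-derived neurotrophic factor, which muscle makes for its own metabolism and for the nerve terminal. The control libraries lay between 12.1 and 25.9 CPM (median 15.8), those at 1 Hz between 16.0 and 22.2 (median 18.7), at 4 Hz between 9.57 and 15.3 (median 13.2) and at 10 Hz between 9.39 and 11.6 (median 11.3). The 10 Hz libraries did not overlap control, and at 4 Hz 2 of 6 lay below it. Bdnf fell by 0.73 ± 0.16 at 10 Hz (adjusted p = 0.00916) and by 0.52 ± 0.16 at 4 Hz (adjusted p = 0.0115) on the log2 scale, and was 0.05 ± 0.16 at 1 Hz (adjusted p = 0.819). The 4 Hz call was lost without control replicate 5 or 6, or 4 Hz replicate 5 or 6 (log2 fold change between -0.60 and -0.39 over all such fits).

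Metrnl, encoding meteorin-like, an exercise-responsive factor of muscle and fat, and Fndc5, the precursor of irisin, passed both thresholds in none of the 6 comparisons. Metrnl lay between 36.9 and 51.3 CPM in control (median 42.9), 44.4 and 58.9 at 1 Hz, 36.2 and 54.2 at 4 Hz and 29.3 and 42.4 at 10 Hz, and its log2 fold changes against control were 0.23 ± 0.11, 0.04 ± 0.11 and -0.21 ± 0.11 in that order (adjusted p = 0.112, 0.808 and 0.277). Fndc5 lay between 15.3 and 23.8 CPM in control (median 19.1) and between 21.1 and 28.5 at 4 Hz (median 25.4), where 4 of 6 libraries exceeded every control. Its 4 Hz difference of 0.38 ± 0.11 passed the p threshold (adjusted p = 0.00777) and not the fold threshold. The 95% intervals were 0.16 to 0.59 for Fndc5 at 4 Hz and 0.01 to 0.44 for Metrnl at 1 Hz.

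Ostn, encoding osteocrin (musclin), a peptide that binds the natriuretic clearance receptor, was too low to test with the other members. Its counts per library were 1, 0, 0, 3, 1 and 0 in control, 9, 6, 21, 5, 5 and 4 at 1 Hz, 6, 5, 20, 16, 6 and 12 at 4 Hz and 2, 1, 0, 2, 4 and 3 at 10 Hz, in replicate order. Every library at 1 and 4 Hz held more CPM than any control library. Summed over 6 libraries these were 5 counts in control (0.147 CPM, exact 95% Poisson interval 0.048 to 0.343), 50 at 1 Hz (1.02, 0.758 to 1.35), 65 at 4 Hz (1.19, 0.916 to 1.51) and 12 at 10 Hz (0.244, 0.126 to 0.426), intervals that cover counting error only. A fit with no filter on low counts, of 31472 genes, gave Ostn log2 fold changes of 2.80 ± 0.67 at 1 Hz (adjusted p = 0.00206), 3.03 ± 0.65 at 4 Hz (adjusted p = 0.000477) and 0.79 ± 0.80 at 10 Hz (adjusted p = 0.667). In that fit 4.51%, 5.19% and 0.613% of all genes rose at 1, 4 and 10 Hz. The size of these folds rests on 5 control counts. Ostn lay close to the filter: it passed in 19 of the 24 fits that left out 1 library. It did not pass without 1 Hz replicate 1, 2 or 3 or 4 Hz replicate 3 or 4, the libraries where its CPM was highest. Against control, it was called in each of those 19 fits at 1 Hz and at 4 Hz and in 0 at 10 Hz. As these fits all kept its highest libraries, their calls do not test its rise at 1 and 4 Hz.

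The order of the 3 frequencies was compared directly. From 1 Hz to 4 Hz, Apln fell by 0.57 ± 0.13 (adjusted p = 0.00411) and Bdnf fell by 0.57 ± 0.16 (adjusted p = 0.0177), while none of the 9 rose (background 1.59% rose and 1.4% fell). All 6 Bdnf libraries at 4 Hz lay below all 6 at 1 Hz, and 3 of 6 did for Apln, whose call was lost without 1 Hz replicate 3. Between 10 Hz and 1 Hz, Il6 was 0.91 ± 0.30 higher (adjusted p = 0.0206), and Apln (-0.85 ± 0.13, adjusted p = 1.83e-05), Bdnf (-0.78 ± 0.16, adjusted p = 0.000484), Gdf15 (-0.69 ± 0.17, adjusted p = 0.00232) and Fgf21 (-0.62 ± 0.20, adjusted p = 0.0156) were lower, beside 9.45% of all genes higher and 8.49% lower. Without 10 Hz replicate 3 the Il6 difference was 0.50 (adjusted p = 0.144), and it was also lost without 1 Hz replicate 5 or 6. Metrnl was lower at 10 Hz than at 1 Hz by less than the fold threshold (-0.44 ± 0.11, adjusted p = 0.00269), with no overlap of the libraries. Il15 was at -0.50 ± 0.25 (adjusted p = 0.123), and without 10 Hz replicate 4 at -0.72 (adjusted p = 0.0284). With the small RNA share as a covariate, of the 5 calls between 10 Hz and 1 Hz only that of Bdnf was left, beside 250 genes of all. Fgf21 was then at 0.022 (adjusted p = 0.976).

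Between 10 Hz and 4 Hz, Il6 was higher by 1.39 ± 0.31 (adjusted p = 0.00237), and Fgf21 (-0.78 ± 0.20, adjusted p = 0.00570) and Il15 (-0.88 ± 0.25, adjusted p = 0.0123) were lower, beside 5.32% of all genes higher and 5.64% lower. For Fgf21 and Il15, 5 of 6 libraries at 10 Hz lay below every 4 Hz library. With log2(TPM + 1) and limma the Il15 difference was -0.59 (adjusted p = 0.162) and that of Il6 0.97 (adjusted p = 0.0297). With the small RNA share as a covariate none of these 3 calls was left, and 0 genes of all passed. In the fit with no filter, Ostn was lower at 10 Hz than at 1 Hz (-2.01 ± 0.57, adjusted p = 0.0107, among 3.8% of genes) and than at 4 Hz (-2.24 ± 0.56, adjusted p = 0.00551, among 2.43%). For Lif the 10 Hz level was -0.31 ± 0.22 relative to 1 Hz (adjusted p = 0.293) and -0.53 ± 0.22 relative to 4 Hz (adjusted p = 0.0808). The log2 fold changes of 4 Hz against 1 Hz were 0.16 ± 0.19 for Fgf21 and 0.22 ± 0.22 for Lif (adjusted p = 0.635 and 0.546).

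**Figure D4:**
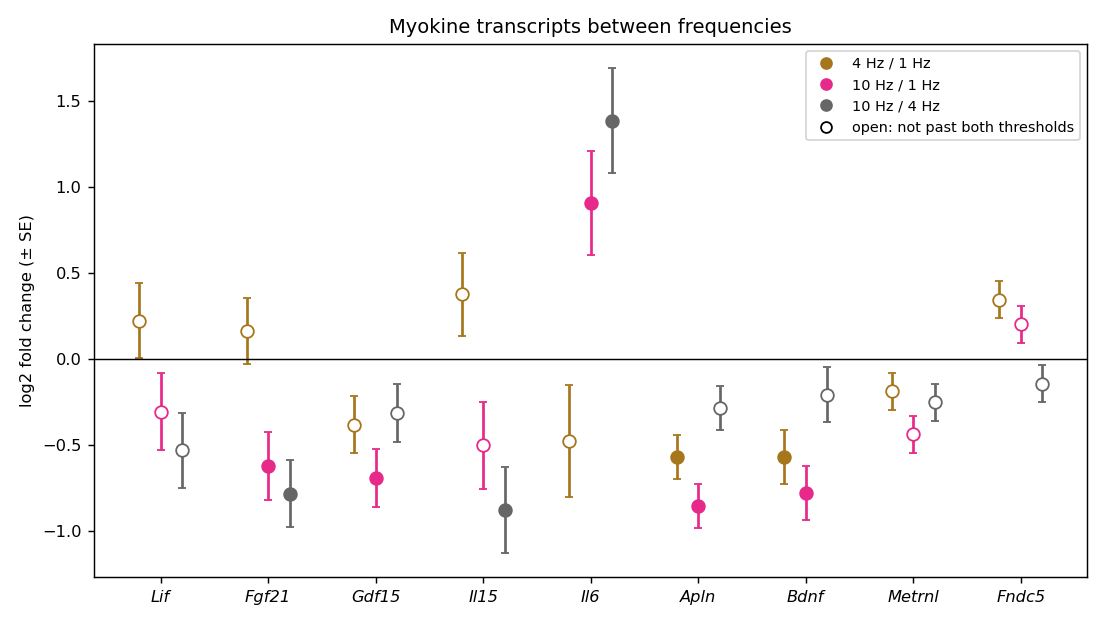
Log2 fold change between frequencies (± SE, n = 6 per condition) of the 9 tested myokine transcripts, with filled points past both thresholds. Il6 is filled above 0 for 10 Hz against 1 Hz and against 4 Hz, and Apln and Bdnf are filled below 0 for both comparisons with 1 Hz.

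Of a list of 27 receptors and signaling partners, 20 were tested. The list was drawn up for these myokines but also held Ptger4, a prostaglandin E2 receptor, which is in the counts that follow. Against control, 4 rose and 3 fell at 1 Hz, 1 rose and 4 fell at 4 Hz, and 0 rose and 2 fell at 10 Hz. Their median log2 fold changes were 0.10, -0.24 and -0.14, beside -0.01 over all genes in each. Of all genes, 9.34% rose and 8.99% fell at 1 Hz, 10.5% and 9.61% at 4 Hz, and 1.24% and 0.623% at 10 Hz. Of the gp130 receptor chains, Il6ra rose at 1 Hz (0.57 ± 0.12, adjusted p = 0.000561), and Il6st, the shared chain, and Lifr passed both thresholds in no comparison with control. Fgfr1, which FGF21 uses together with a co-receptor, rose at 1 Hz (0.76 ± 0.12, adjusted p = 4.77e-05), whereas that co-receptor, Klb, reached at most 2 counts in any library. For IL-15, Il15ra reached at most 7 counts, Il2rb was not called, and Il2rg fell at 4 Hz (-1.11 ± 0.31, adjusted p = 0.00603). The integrin chains Itgav, Itgb1 and Itgb5, linked to irisin, were not called against control.

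Gfral, the GDF15 receptor, reached at most 8 counts, and Ret, its signaling partner, fell at all 3 frequencies, from 8.74 CPM in control to 4.95, 3.28 and 3.96 at 1, 4 and 10 Hz (adjusted p = 0.00131, 3.83e-06 and 0.000942). Kit, a receptor of meteorin-like, reached at most 2 counts. Among the natriuretic peptide receptors, Npr3, which binds osteocrin, rose at 1 Hz (0.71 ± 0.25, adjusted p = 0.0284), Npr2 was not called, and Npr1 reached at most 11 counts. The apelin receptor Aplnr and the BDNF receptor Ntrk2 reached at most 5 and 2 counts. Ngfr, the low-affinity neurotrophin receptor, fell at 1 Hz from a mean of 1.02 to 0.234 CPM (adjusted p = 0.0031), and Sort1, which sorts BDNF, rose at 1 Hz (0.86 ± 0.10, adjusted p = 1.23e-06) and 4 Hz (0.64 ± 0.10, adjusted p = 1.5e-05). Ptger4, which is not a receptor of the 10 myokines, fell at 1 Hz (-0.99 ± 0.16, adjusted p = 5.38e-05), 4 Hz (-1.59 ± 0.16, adjusted p = 1.49e-07) and 10 Hz (-0.66 ± 0.16, adjusted p = 0.0134). With Ret it made up the 2 listed genes that fell at 10 Hz. For GDF15, apelin and BDNF, the ligand passed the filter on low counts and Gfral, Aplnr and Ntrk2 did not.

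Several members overlap other genes, most of them on the opposite strand. The paper names a directional library kit, but the sources used here do not say if reads were assigned by strand. Of the overlapping genes, S100pbp (Fndc5, 127 to 461 counts per library) and Fut1 (Fgf21, 2 to 27 counts) passed the filter. Each is on the opposite strand and covers 0 exon bases of the member's main transcript. On its own strand, Fndc5 overlaps the lncRNA Gm15906, with at most 3 counts. On the opposite strand, the lncRNA Gm68585 covers 1336 exon bases of the main Fndc5 transcript, and no gene of that name was among those counted. Il6 (GRCm39 chr5:30218112-30224979) lies within the lncRNA Gm42450, which had at most 2 counts in any library, and Il15 (chr8:83054226-83129874) overlaps 9530004M14Rik, which had 0. Gdf15 (chr8:71082038-71091537) overlaps the lncRNA Gm34154 on the opposite strand, over 636 exon bases. No gene of that name was among those counted, so its reads could not be set apart. Lif (chr11:4207557-4222514) and Apln (chrX:47114019-47123775) overlap no annotated gene.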

How the data were processed

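RNA of 24 ChR2::tdTomato C2C12 tissues was sequenced by the authors as 50-base pairs after poly(A) selection, low-input samples by ribodepletion. Groups and replicates were read from the sample titles. The study calls the 6 tissues of a condition biological replicates, all of 1 cell line, so p-values measure the spread between such tissues. The deposited values were salmon estimated counts (expected counts, not normalized) and TPM made by the authors against GRCm39. The sources used here do not give the annotation release. Counts were rounded. Genes were kept with filterByExpr by condition. edgeR 4.0.16 (TMM, glmQLFit, glmQLFTest), limma 3.58.1 and R 4.3.3 were used in a single model of the 24 libraries whose only term was condition (common dispersion 0.0233), with 6 contrasts and Benjamini-Hochberg adjustment over all genes tested. CPM use TMM-scaled library sizes. DESeq2 1.42.0, limma on log2(TPM + 1) and log2(TPM + 0.1), other scalings, no filter, the replicate block, the small RNA share as a covariate and leaving out each library were alternatives. All 10 members are named. Receptors on the partner list are named whether or not they moved, and other secreted factors by the largest called changes, up to 2 each way per comparison with control. A gene that this rule selects is not reported here. Members and lists were chosen with earlier results of these data known. Tested on simulated data for 1 Hz against control (13137 genes, 200 changed by a log2 fold change of 1), edgeR recovered 79% of the changed genes, and 3.66% of its calls were false. The simulated counts used the spread that edgeR itself had fitted and held no difference in library makeup. These shares therefore need not hold for the real libraries. No pair of libraries of the same condition agreed within sampling noise (lowest chi-square per gene 3.16 over 60 pairs). Pairs between conditions were not compared.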

Additional observations from a re-analysis of the deposited data

Results flagged for a closer look

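In 36 groups of 6 libraries, the highest or the lowest library stood apart from the rest by Dixon's test in 3. Chance gives such a flag in about 1 of 20 groups. Il6 at 10 Hz replicate 3 was at 12.4 CPM, with the next library at 5.53 CPM. Apln in the same library was at 24.8 CPM, with the next at 18.0 CPM. Fgf21 in control replicate 4 was at 29.4 CPM, with the next at 21.1 CPM. What set these libraries apart was not tested.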

How the results depend on the processing

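The counts of members called were 4, 4 and 4 against control at 1, 4 and 10 Hz, and 2, 5 and 3 for 4 Hz against 1 Hz, 10 Hz against 1 Hz and 10 Hz against 4 Hz. Leaving out each library in turn gave 3 to 5, 4 to 6, 3 to 4, 1 to 2, 5 to 7 and 3 to 4, in which Ostn passed the filter and was tested too in 19 of 24 fits. Without Ostn these were 3 to 4, 3 to 5, 3 to 4, 1 to 2, 4 to 6 and 3 in every fit. The small RNA share as a covariate gave 0 at 1 Hz, 0 at 4 Hz, 1 for 10 Hz against 1 Hz and 0 for 10 Hz against 4 Hz. Of all 13318 genes, 1, 249, 250 and 0 passed in these fits. At 4 Hz the adjusted p alone gave 7 of the 9 members, beside 5251 of all 13318 genes. At 10 Hz limma on log2(TPM + 1) with no filter gave 2, beside 158 of 31566 genes. The labels do not say if tissues of the same replicate number were paired. Same-number correlations ran from -0.184 to 0.362, with 10 of 36 over 0.1. Of the 24 libraries, 10 were closest to a library of their own number. These values were not set against chance, so a shared replicate structure was not tested. The replicate block gave 4, 4, 4, 2, 5 and 3. With no filter at 4 Hz, Gdf15 took the place of Bdnf. Under total count scaling 942 of 2537 genes called at 1 Hz were higher, against 1244 higher and 1197 lower with TMM, and at 4 Hz 1012 of 2833 against 1396 and 1280. On log2(TPM + 1) the higher genes were 828 of 1985, 677 of 2734 and 77 of 234 at 1, 4 and 10 Hz. The median of all genes at 4 Hz lay at -0.11 under total count scaling and -0.16 on log2(TPM + 1). Direction changed only for differences that passed no threshold in the main analysis, except Fgf21 at 10 Hz against 1 Hz (0.022 with the covariate). The others were Lif at 10 Hz against 1 Hz (0.094) and Apln at 1 Hz (-0.039), both with the covariate. Fndc5 at 1 Hz was -0.048 under total count scaling, -0.033, -0.036 and -0.033 under limma on log2(TPM + 1), log2(TPM + 0.1) and the first with no filter, and -0.047 with the covariate (-0.025 to 0.10 leaving out a library). Bdnf at 1 Hz was -0.022 under total count scaling (-0.030 to 0.18). Metrnl at 4 Hz was -0.060, -0.19, -0.20, -0.19 and -0.062 under the same 5 settings as Fndc5 (-0.014 to 0.095). Il6 at 4 Hz, main -0.00033, was 0.0060 under DESeq2 size factors, 0.038 with no filter, 0.0035 under DESeq2, 0.0023 with the replicate block, 0.66 with the covariate and 0.0064 with the 12 libraries alone (-0.10 to 0.15). The cause of these changes was not tested. Counts of 8 to 16 in control limit Il6, and 0 to 3 limit Ostn.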

Other observations

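Of 24 other factors that muscle is known to secrete, 19 were tested. Against control, 6 rose and 1 fell at 1 Hz, 6 rose and 2 fell at 4 Hz, and 2 rose and 0 fell at 10 Hz. Their median log2 fold changes were 0.34, 0.29 and 0.01, beside -0.01 over all genes in each. Of all genes, 9.34% rose and 8.99% fell at 1 Hz, 10.5% and 9.61% at 4 Hz, and 1.24% and 0.623% at 10 Hz. Gdnf, a neurotrophic factor for motor neurons, rose at 1 Hz from 24.6 to 53.7 CPM (1.13 ± 0.13, adjusted p = 2.25e-06) and was at 24.6 CPM at both 4 Hz and 10 Hz. Fgf2 rose at 1 Hz (0.80 ± 0.28, adjusted p = 0.0258) and 4 Hz (0.99 ± 0.27, adjusted p = 0.00564). Clcf1, a gp130 cytokine, rose at 1 Hz (0.71 ± 0.11, adjusted p = 4.44e-05), 4 Hz (0.86 ± 0.11, adjusted p = 2.35e-06) and 10 Hz (0.66 ± 0.11, adjusted p = 0.00119). Ctf1, another gp130 cytokine, fell at 1 Hz (-0.62 ± 0.24, adjusted p = 0.0451) and 4 Hz (-0.80 ± 0.24, adjusted p = 0.00944), and Dcn, a matrix proteoglycan, fell at 4 Hz (-0.59 ± 0.17, adjusted p = 0.00695).

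The genes whose log2 CPM followed a member most closely over the 24 libraries were Asb2 for Fgf21 (Pearson r 0.960), Tmem132a for Gdf15 (0.916), Pkm for Metrnl (0.910), Usp2 for Il15 (0.898), Vopp1 for Apln (0.894), Cyb5r3 for Lif (0.893), Tnpo3 for Bdnf (0.833), Ppt1 for Il6 (0.821) and Coq9 for Fndc5 (0.818). A gene and a member were read from the same libraries, so each library's condition and depth, which ran from 4.09 to 15.2 M counts, enter both. With condition means subtracted, the closest were Atp5d for Gdf15 (0.923), Eno1 for Metrnl (0.923), Orai1 for Fgf21 (0.908) and Ppt1 for Il6 (0.889). The other members followed with Jarid2 for Il15 (0.854), Dnmt1 for Lif (0.831), Sgk1 for Apln (0.803), Irf2bp1 for Fndc5 (0.761) and Masp1 for Bdnf (0.732).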
